A study of Mus musculus with 21 samples.

Results

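Cntnap2, Cntnap1, Cntn1, Cntn2, Nrxn2, Nrxn3, Nlgn1, Nlgn2 and Nlgn3 code for cell adhesion proteins of axons and synapses, and several of them are linked to autism. These 9 genes were taken by symbol from 24322 symbols, and all 9 were found in every library. They were picked with results from these data already known, so any comparison given here may have entered the choice. The adjusted p-values place a gene among all genes tested and are not independent support for it. The choice had no threshold.

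Green cells had been sorted by flow cytometry from Nestin-EGFP mice on a C57BL/6 background, in which a Nestin reporter marks neural stem and progenitor cells. All 7 groups carried this reporter. Pregnant dams had been given methylcellulose (control) or valproic acid (VPA, an antiepileptic drug that inhibits histone deacetylases) by mouth at 300 mg per kg per day on embryonic days 12, 13 and 14. Polyadenylated RNA came from forebrain at embryonic day 15 (E15; control and VPA) and from the hippocampal dentate gyrus at postnatal day 5 (P5; control and VPA) and 12 weeks (control, VPA, and VPA with voluntary running). Running without VPA was not analysed here, so running could be compared only within VPA-exposed mice. Each group had 3 libraries. The labels do not say whether these were separate litters, animals or pools, so p-values measure only the spread between these samples, which may be technical. Green fluorescent protein can also outlast Nestin in the newly formed offspring of the sorted cells. In bulk RNA of this kind, fewer cells of a type and less RNA per cell cannot be told apart.

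Neurexins sit mainly on the presynaptic side and bind neuroligins across the synaptic cleft. Neuroligin-2 is found chiefly at inhibitory synapses, neuroligin-1 chiefly at excitatory synapses, and neuroligin-3 at both. Caspr2, the product of Cntnap2, joins contactin-2 (Cntn2, also called TAG-1) beside the node of Ranvier and gathers potassium channels there, whereas Caspr, the product of Cntnap1, joins contactin-1 (Cntn1) at the paranodal junction. Before myelin forms, contactin-2 is carried by young migrating and axon-growing neurons, and contactin-1 is made by both neurons and cells of the oligodendrocyte lineage.

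Upstream sequences are shown for Cntnap2, Cntn1 and Nlgn2. They were taken because, of the 7 groups, VPA at 12 weeks had the lowest Cntnap2 mean and the highest Cntn1 and Nlgn2 means. A further reason is that the windows printed for them hold no annotated exon. RefSeq promoters on GRCm38.p6 matched 6 of the 9 genes, and the 250 bases before a RefSeq start are printed 5′ to 3′ on the gene's own strand. RefSeq gave 2 windows for Cntnap2, 3 for Cntn1 and 1 for Nlgn2, and for Cntnap2 and Cntn1 only the most upstream is printed. The Cntnap2 window lies inside the gene as GENCODE draws it, since GENCODE places the start further upstream, at 45059357. Capitals mark a GC box, searched as GGGCGG on both strands. The windows are chr6:45059811-45060060 on the plus strand for Cntnap2, chr15:92050915-92051164 on the plus strand for Cntn1 and chr11:69837785-69838034 on the minus strand for Nlgn2.
Cntnap2: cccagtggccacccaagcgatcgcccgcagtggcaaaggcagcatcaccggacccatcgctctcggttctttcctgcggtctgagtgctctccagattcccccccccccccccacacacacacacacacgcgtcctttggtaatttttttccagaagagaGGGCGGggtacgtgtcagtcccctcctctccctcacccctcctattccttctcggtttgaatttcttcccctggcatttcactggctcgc
Cntn1: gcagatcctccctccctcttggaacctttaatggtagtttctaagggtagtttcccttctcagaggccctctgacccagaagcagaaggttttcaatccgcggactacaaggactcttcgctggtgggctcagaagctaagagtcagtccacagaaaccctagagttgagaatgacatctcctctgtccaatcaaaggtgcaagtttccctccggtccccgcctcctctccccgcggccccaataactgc
Nlgn2: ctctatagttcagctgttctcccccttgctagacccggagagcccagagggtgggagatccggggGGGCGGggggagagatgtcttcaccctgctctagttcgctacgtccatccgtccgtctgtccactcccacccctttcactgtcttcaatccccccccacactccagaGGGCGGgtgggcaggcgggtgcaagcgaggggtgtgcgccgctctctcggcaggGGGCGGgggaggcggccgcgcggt
The printed Cntnap2 window held 1 GC box, the Nlgn2 window held 3, and the printed Cntn1 window held none. No GC box was found in the windows of Cntnap2 and Cntn1 that are not printed. GC content was 59.6% in Cntnap2, 53.6% in Cntn1 and 67.6% in Nlgn2, with 13, 7 and 18 CG dinucleotides. A GC box was found in 32.7% of 32851 promoter windows of this length. The cyclic AMP response element TGACGTCA (1.55% of windows), its shorter form TGACG, which the longer one contains (17.8%), and the AP-1 element TGANTCA (6.75%) were also searched on both strands and had no match in these 3 windows. Of the unprinted Cntn1 windows, 1 held TGACG. A match is a string of letters and not a measured binding site.

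In the GENCODE vM21 annotation of mm10, Cntnap2 (ENSMUSG00000039419.17) spans 2244.9 kb of chromosome 6 (45059357 to 47304213), Nrxn3 spans 1612.1 kb of chromosome 12 and Nlgn1 spans 906.2 kb of chromosome 3. Cntn1 (ENSMUSG00000055022.14) lies at 92051165 to 92341967 on chromosome 15 and Cntn2 (ENSMUSG00000053024.14) at 132509427 to 132543256 on chromosome 1. The compact Nlgn2 gene (ENSMUSG00000051790.15) covers 14.7 kb of chromosome 11 (69823122 to 69837784), and Nlgn3 (ENSMUSG00000031302.16) covers 26.8 kb of the X chromosome (101299168 to 101325963). Nrxn2 (ENSMUSG00000033768.17) lies at 6418731 to 6544169 on chromosome 19 and Cntnap1 (ENSMUSG00000017167.6) at 101170523 to 101190724 on chromosome 11. Exons of Nlgn3 share 3823 bases with Gm21986 on the same strand. Those of Nlgn1, Nrxn2, Nrxn3 and Cntnap1 overlap other genes by 1229 bases or fewer. Reads in the Nlgn3 overlap cannot be told apart by strand. The other overlaps are on the opposite strand. The strand of the libraries is not stated, so reads there cannot be told apart either.

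Deposited values were taken as fragments per kilobase of transcript scaled to library size (FPKM), so levels can be compared between genes. The unit is named at 12 weeks and was inferred for E15 and P5, and comparisons of those ages with 12 weeks rest on this. Means are given ± SD (n = 3), and fold changes are differences of log2(FPKM + 1) ± SE. Library sums ran from 465610 to 574594 FPKM, and sequencing depth is not known from such values. The younger libraries had 16116 to 17601 genes above 0, the adult ones 12019 to 15210. Within a group, a gene's SD had a median of 0.093 to 0.116 log2 units in the younger groups, and 0.357, 0.377 and 0.529 in the control, VPA and running groups at 12 weeks. All 12 neural stem cell markers examined were at 1 FPKM or more in every library, and so were all 12 newborn neuron markers. All 9 oligodendrocyte precursor markers reached 1 FPKM in every library at P5 and 12 weeks, but few did at E15. VPA E15 replicate 3 stood apart, with the choroid plexus gene Ttr at 9662 FPKM against 8.75 to 131.4 in the other E15 libraries. Adult libraries were uneven too. Ttr was at 0.088, 315.7 and 558.0 FPKM with running, against 1.96 to 87.4 in the control and VPA libraries of 12 weeks. In 12-week controls the microglial markers summed to 61 to 434.1 FPKM and the erythroid markers to 0 to 823.6.

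**Figure D1:**
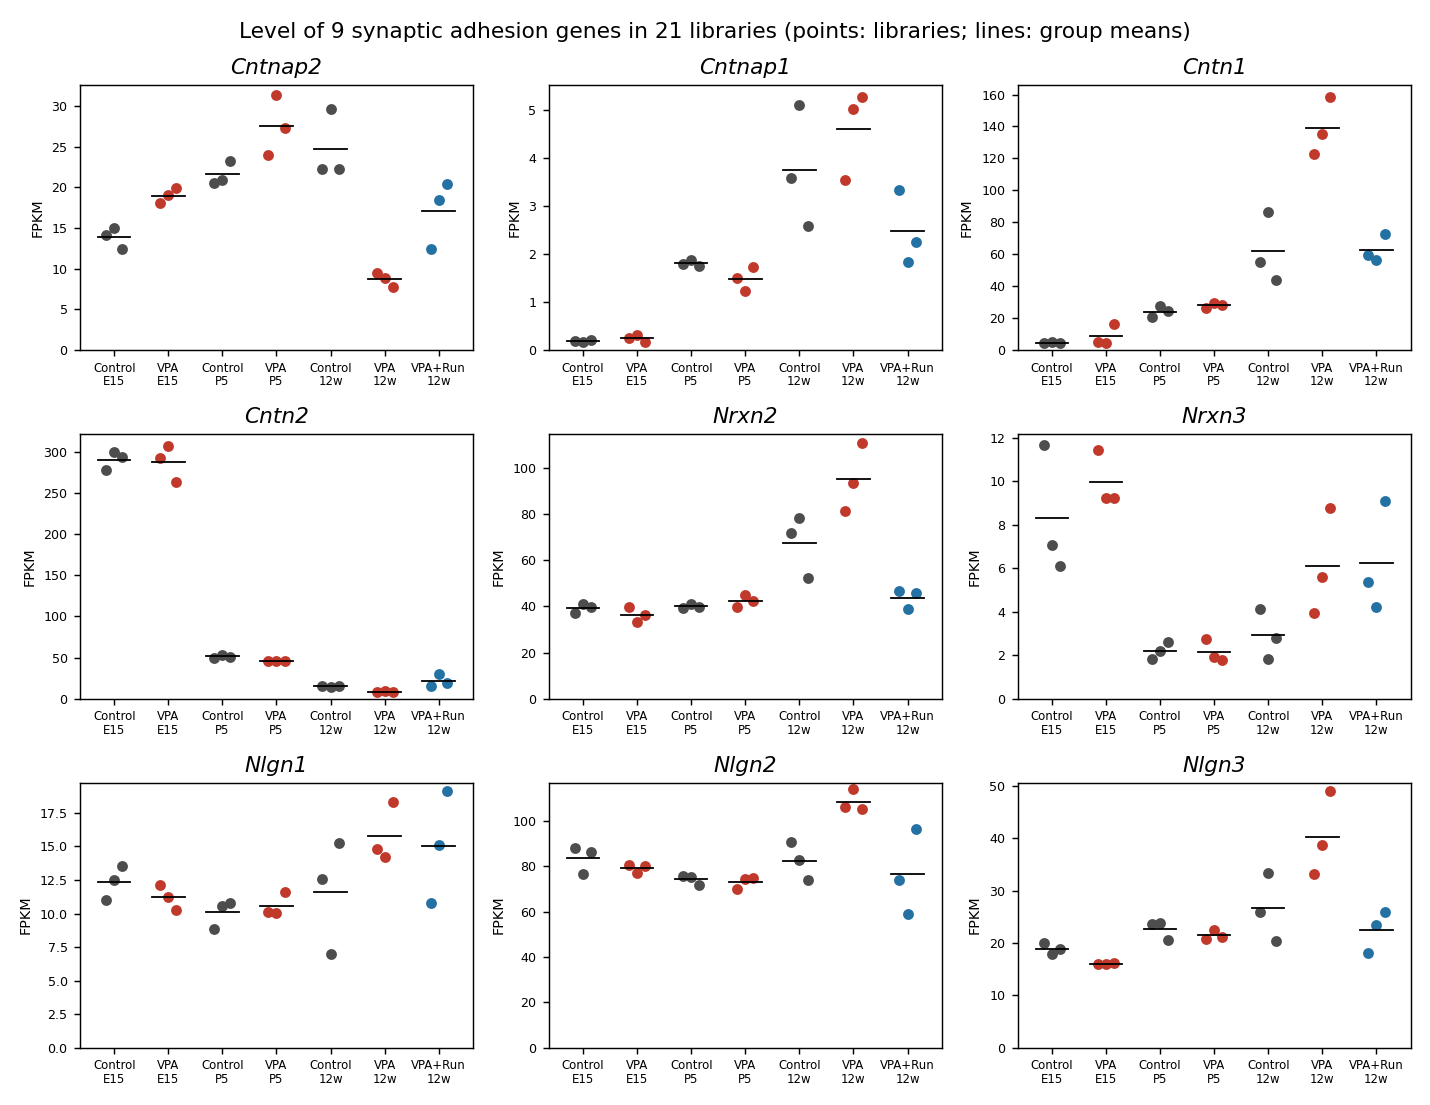
FPKM of the 9 genes in each of the 21 libraries by group; points are libraries and bars are group means. Cntn2 is highest at E15, Cntn1 at 12 weeks in the VPA group, and Cntnap2 is lowest in the 12-week VPA group.

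Cntnap2 was higher in VPA than in control libraries at E15 and P5 and lower at 12 weeks. At E15 the controls had 14.2, 15.04 and 12.5 FPKM and the VPA libraries 18.0, 19.1 and 19.9. At P5 the values were 20.6, 20.96 and 23.3 in controls and 23.9, 31.4 and 27.3 in VPA libraries. At 12 weeks controls had 22.3, 29.6 and 22.3 FPKM, VPA libraries 9.42, 8.88 and 7.74, and running libraries 12.5, 18.5 and 20.4. Control and VPA values did not overlap at any of the 3 ages, and each running library lay between the VPA and control ranges. The VPA difference was 0.43 ± 0.09 at E15 (limma adjusted p = 0.344), 0.33 ± 0.10 at P5 (adjusted p = 0.115) and -1.40 ± 0.28 at 12 weeks (adjusted p = 0.415), and none passed the threshold of 0.05. At 12 weeks this is a mean 2.85 times lower, 8.68 ± 0.855 against 24.8 ± 4.22. Running libraries had 17.1 ± 4.12, which was 1.97 times the VPA mean (log2 difference 0.88 ± 0.28, adjusted p = 0.290).

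The change of the VPA difference between P5 and 12 weeks was tested in a fit of all 21 libraries. For Cntnap2 it was -1.73 ± 0.24 (limma adjusted p = 0.00289), and it passed in all 18 settings tried, with values from -1.84 to -1.60 and adjusted p from 0.00185 to 0.0211. Among all tested genes 0.389% passed this test, and Cntnap2 was the only member to do so. That fit shares 1 estimate of the spread over ages whose spread differs as given above. The SE of 0.24 is smaller than the 0.28 of the 12-week VPA difference alone, so the adjusted p may be too small. None of the 18 settings let the spread differ between ages, so passing in all of them does not test this. For the same change the 8 pericyte markers had a median of -1.53 (0 of 8 higher, 2 passing) and the 8 endothelial markers -1.33 (0 of 8 higher). Microglial markers had -1.22 (1 of 9 higher), oligodendrocyte -0.64 (1 of 10), astrocyte -0.64 (1 of 8), newborn neuron -0.50 (1 of 12) and mature neuron -0.43 (3 of 13). Neural stem cell markers had 0.15 (6 of 12), GABAergic neuron markers 0.71 (6 of 9) and the 9 oligodendrocyte precursor markers 0.77 (8 of 9 higher). The part of these markers in the Cntnap2 value was not tested. In controls alone Cntnap2 rose from E15 to P5 by 0.60 ± 0.17 (adjusted p = 0.0146), where the tissue also changes from forebrain to dentate gyrus. The call was lost without Control E15 replicate 3 (adjusted p = 0.0745) and without Control P5 replicate 3 (adjusted p = 0.0639). From P5 to 12 weeks the control difference was 0.18 (adjusted p = 0.567). Ordered by mean, VPA at P5 was highest, followed by control at 12 weeks, control at P5, VPA at E15, running, control at E15 and VPA at 12 weeks. Only control P5 against VPA E15, and control E15 against VPA at 12 weeks, were neighbours whose ranges did not overlap.

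Cntnap1, which codes for the paranodal Caspr, was near the floor in embryonic cells and a few FPKM in adult ones. Its range was 0.16 to 0.32 FPKM over the 6 E15 libraries, below the filter for testing VPA at that age. It rose in controls from 0.186 ± 0.0213 at E15 to 1.81 ± 0.0690 at P5 (1.24 ± 0.23, limma adjusted p = 0.000674). At 12 weeks controls had 3.75 ± 1.26 (0.73 ± 0.23 over P5, adjusted p = 0.0489), a call that held in 4 of 12 settings and was lost with a pseudocount of 0.1 (adjusted p = 0.123). VPA libraries had 1.48 ± 0.247 at P5 and 4.60 ± 0.937 at 12 weeks, and running libraries 2.47 ± 0.782. Its VPA differences were -0.18 ± 0.11 at P5 (adjusted p = 0.366) and 0.26 ± 0.43 at 12 weeks (adjusted p = 0.961), and the running difference was -0.70 ± 0.43 (adjusted p = 0.566).

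The contactin genes crossed over between the ages, where the tissue also changes from forebrain at E15 to dentate gyrus at P5. Cntn2 had the highest level of the 9 genes in embryonic forebrain, at 278, 299.5 and 293 FPKM in E15 controls, where Cntn1 had 4.08, 4.79 and 4.46. At P5 the controls had 49.6, 53.8 and 50.9 FPKM for Cntn2 and 20.5, 27.3 and 24.5 for Cntn1. By 12 weeks the order was reversed, with 15.2, 14.8 and 15.6 for Cntn2 and 55.0, 86.3 and 44.0 for Cntn1. In controls Cntn2 fell at both steps, by 2.47 ± 0.15 from E15 to P5 (limma adjusted p = 2.16e-09) and by 1.69 ± 0.15 from P5 to 12 weeks (adjusted p = 1.11e-06). Cntn1 rose by 2.20 ± 0.31 (adjusted p = 4.26e-05) and then by 1.28 ± 0.31 (adjusted p = 0.0111). Over the same ages the control sums of the 9 oligodendrocyte precursor markers were 7.212 to 12.32, 458.9 to 547.1 and 1236 to 1916 FPKM (Neu4 was at 0 in E15 controls), and those of the 12 newborn neuron markers 4726 to 5701, 3430 to 3904 and 2983 to 3406; their part in the contactin values was not tested. The second Cntn1 rise was lost without Control P5 replicate 1 (adjusted p = 0.0561) and without Control 12-week replicate 2 (adjusted p = 0.0657).

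**Figure D2:**
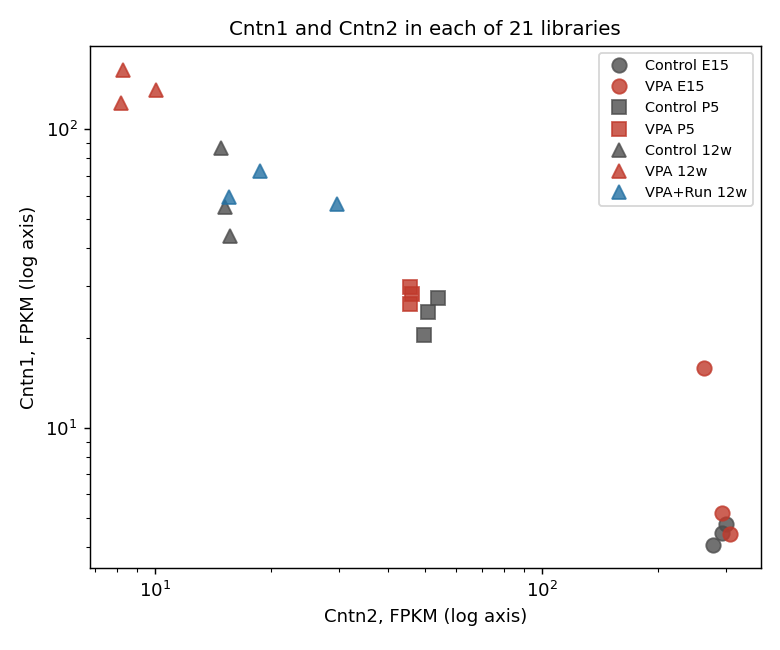
Cntn2 (x axis) against Cntn1 (y axis) in FPKM, both on log axes, with 1 point per library. Colour shows the treatment and marker shape the age. Libraries run from high Cntn2 and low Cntn1 at E15 to low Cntn2 and high Cntn1 at 12 weeks. The 12-week VPA libraries have the lowest Cntn2 and the highest Cntn1.

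At 12 weeks the VPA libraries had more Cntn1 and less Cntn2 than controls. Cntn1 was at 123, 135 and 158 FPKM and Cntn2 at 8.15, 10.1 and 8.27. With running, Cntn1 had 59.2, 56.4 and 72.7 and Cntn2 had 15.6, 29.5 and 18.7. For both genes the VPA range was apart from the control and running ranges, which overlapped each other. The ratio of Cntn1 to Cntn2 was 2.82 to 5.83 in controls, 13.4 to 19.2 in VPA libraries and 1.91 to 3.89 with running. Cntn1 was 2.25 times the control mean in VPA libraries (1.20 ± 0.24, limma adjusted p = 0.415) and Cntn2 was 1.72 times lower (-0.73 ± 0.30, adjusted p = 0.729). Running libraries had Cntn1 2.21 times lower than VPA (-1.13 ± 0.24, adjusted p = 0.150) and Cntn2 2.41 times higher (1.14 ± 0.30, adjusted p = 0.204), so none of the 4 differences passed.

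At the younger ages no contactin difference with VPA passed. Cntn2 had 292, 307 and 263 FPKM in E15 VPA libraries, overlapping the controls (-0.02). At P5 Cntn2 had 45.6, 45.5 and 46.3 in VPA libraries, all below the controls (-0.16 ± 0.05, limma adjusted p = 0.107). Cntn1 in E15 VPA libraries had 5.19, 4.42 and 16.0, and the high value is the library with 9662 FPKM of Ttr. Its VPA difference there was 0.61 ± 0.40 (adjusted p = 0.615), and 0.09 without that library. At P5 Cntn1 had 26.0, 29.6 and 28.1 against 20.5 to 27.3 in controls (0.21 ± 0.10, adjusted p = 0.268), with overlapping ranges.

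Among the neurexin genes, which code for presynaptic receptors, Nrxn2 varied most clearly at 12 weeks. It stayed between 33.3 and 45.0 FPKM in all 12 libraries of E15 and P5. At 12 weeks it had 71.7, 78.2 and 52.0 in controls, 81.1, 93.4 and 111 in VPA libraries and 46.8, 38.8 and 45.6 with running. The 3 ranges did not overlap, with VPA on top and running lowest. Nrxn2 rose in controls from P5 to 12 weeks by 0.72 ± 0.14 (limma adjusted p = 0.00209), from 39.9 ± 0.958 to 67.3 ± 13.6. VPA exceeded control by 0.50 ± 0.20 (adjusted p = 0.729), and running was below VPA by 2.17 times (-1.09 ± 0.20, adjusted p = 0.122). From E15 to P5 the control difference was 0.03 ± 0.14 as deposited and -0.09 after median-of-ratios scaling, so its sign depends on the scaling.

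Nrxn3 had its highest control values in embryonic forebrain, at 11.7, 7.08 and 6.13 FPKM. At P5 controls had 1.83, 2.19 and 2.60, and the mean fell to 3.76 times lower (limma adjusted p = 0.00170). At 12 weeks it had 4.15, 1.83 and 2.81 in controls, 3.96, 5.59 and 8.76 in VPA libraries and 5.40, 4.24 and 9.11 with running. The VPA range overlapped both others (0.84 ± 0.46 over control, adjusted p = 0.813), and running against VPA was 0.03 (adjusted p = 0.987). All its neighbouring groups in the order of means overlapped.

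Neuroligin genes, which code for the postsynaptic partners, kept a narrow range before 12 weeks. Nlgn2 supplied 60.4% to 75.3% of the summed Nlgn1, Nlgn2 and Nlgn3 FPKM in every library. It was between 69.9 and 88.2 FPKM in all E15 and P5 libraries. At 12 weeks Nlgn2 had 90.8, 82.9 and 73.8 in controls, 106, 114 and 106 in VPA libraries and 74.2, 58.8 and 96.7 with running. VPA libraries were above all other 12-week libraries, and running overlapped control. The VPA difference was 0.40 ± 0.20 (limma adjusted p = 0.774) and the running difference -0.53 ± 0.20 (adjusted p = 0.352).

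Nlgn3 followed a similar order at 12 weeks, with 25.9, 33.4 and 20.4 FPKM in controls, 33.1, 38.7 and 49.0 in VPA libraries and 18.1, 23.4 and 25.9 with running. Control and VPA ranges overlapped narrowly, while running lay below VPA throughout. Those differences were 0.59 ± 0.26 (limma adjusted p = 0.765) and -0.81 ± 0.26 (adjusted p = 0.290). At E15 the sign was the other way, with 20.0, 17.9 and 18.9 in controls and 16.0, 16.0 and 16.1 in VPA libraries, which did not overlap (-0.23 ± 0.07, adjusted p = 0.382). At P5 the ranges overlapped (-0.07, adjusted p = 0.568). Nlgn1 was between 6.98 and 19.2 FPKM in all 21 libraries, every pair of neighbouring groups overlapped, and its largest within-age difference was 0.47 ± 0.35 for VPA at 12 weeks (adjusted p = 0.872). From E15 to P5 none of the neuroligin genes passed in controls. Nlgn3 passed at adjusted p = 0.0276 when only those control groups were fitted.

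**Figure D3:**
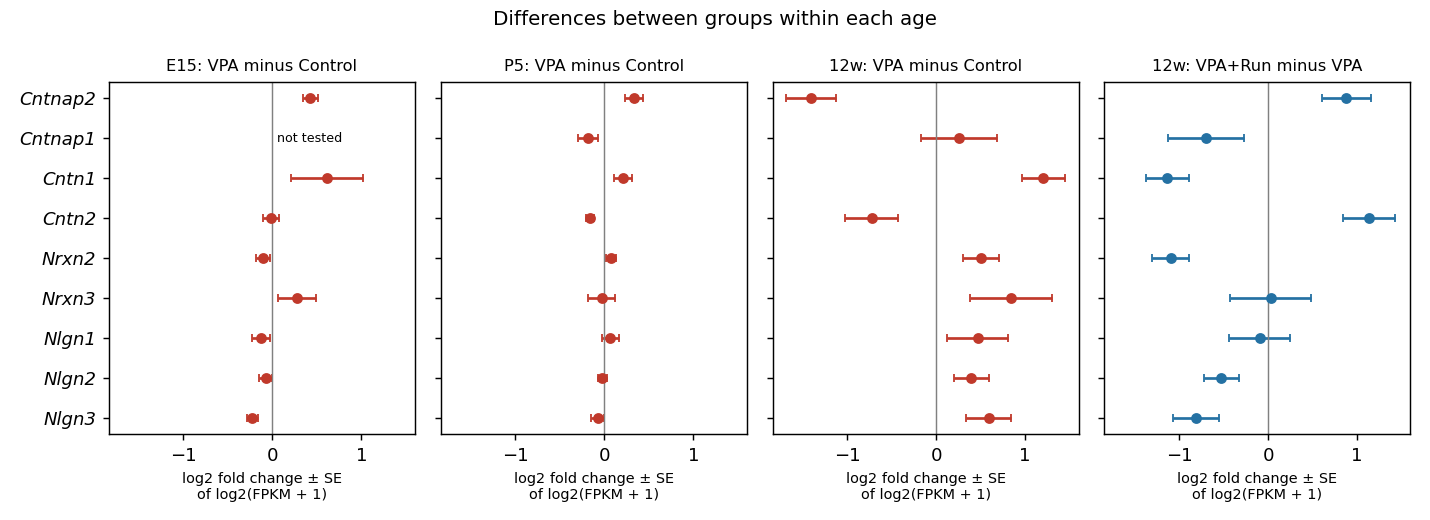
Differences of log2(FPKM + 1) for the 9 genes in VPA against control at E15, P5 and 12 weeks and in running against VPA at 12 weeks; points are estimates and bars are SE. Cntnap1 was not tested at E15. Cntnap2 is above 0 at E15 and P5, at -1.40 for VPA at 12 weeks and at 0.88 for running.

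Counted over the members, no VPA or running comparison within an age gave a call with limma. At E15 0 of 8 tested members passed, against 0.0405% of all tested genes, and 2 were at an unadjusted p under 0.05 (10.5% of all genes). Cntnap2 and Nlgn3 were the 2 of 8 without overlap, against 17.5% of all genes. At P5 0 of 9 passed (2.24% of all genes), 2 were at an unadjusted p under 0.05 (24% of all genes) and Cntnap2, Cntnap1 and Cntn2 did not overlap (29.4% of all genes). Beside these values at E15, all 9 GABAergic neuron markers were higher with VPA (median 0.63), summing to 346.7 to 453.9 FPKM against 216.2 to 368 in controls, with none passing. Newborn neuron markers summed to 4452 to 4642 FPKM with VPA against 4726 to 5701, with 2 of 12 higher (median -0.08, 0 passing). Pericyte markers summed to 11.48 to 13.47 against 16.4 to 17.92, with 0 of 6 tested higher (median -0.31, 0 passing). At P5 all 8 pericyte markers were higher with VPA (median 1.03, 2 passing), summing to 164.1 to 296.5 FPKM against 108.1 to 126, and 0 of 12 neural stem cell markers were higher (median -0.33, 2 passing). Of the erythroid markers 0 of 4 were higher (median -1.99, 2 passing), summing to 92.71 to 396.4 FPKM against 726.9 to 1033. Microglial markers were higher in 7 of 7 (median 0.59, 0 passing). The part of these markers in the members' values at E15 and P5 was not tested.

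At 12 weeks 0 of 9 members and 0% of 13847 tested genes passed for VPA against control with limma. At an unadjusted p under 0.05 there were 5 members and 885 genes (6.39%). Ranges did not overlap for 5 of 9 members, Cntnap2 and Cntn2 being lower (7.63% of all genes) and Cntn1, Nrxn2 and Nlgn2 higher (7.83%), against 15.5% of all genes in either direction. For running against VPA 0 of 9 members and 0% of genes passed, with 6 members and 1566 genes (11.3%) at an unadjusted p under 0.05. Here 7 of 9 members did not overlap, all but Nrxn3 and Nlgn1, again against 15.5% of all genes. Of these, Cntnap2 and Cntn2 were higher (6.98% of all genes) and 5 were lower (8.48%). Median differences over the members were 0.47 for VPA and -0.53 for running, and over all tested genes -0.01 and -0.05. Both comparisons use the same VPA libraries, so values high or low there enter both with opposite sign.

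**Figure D4:**
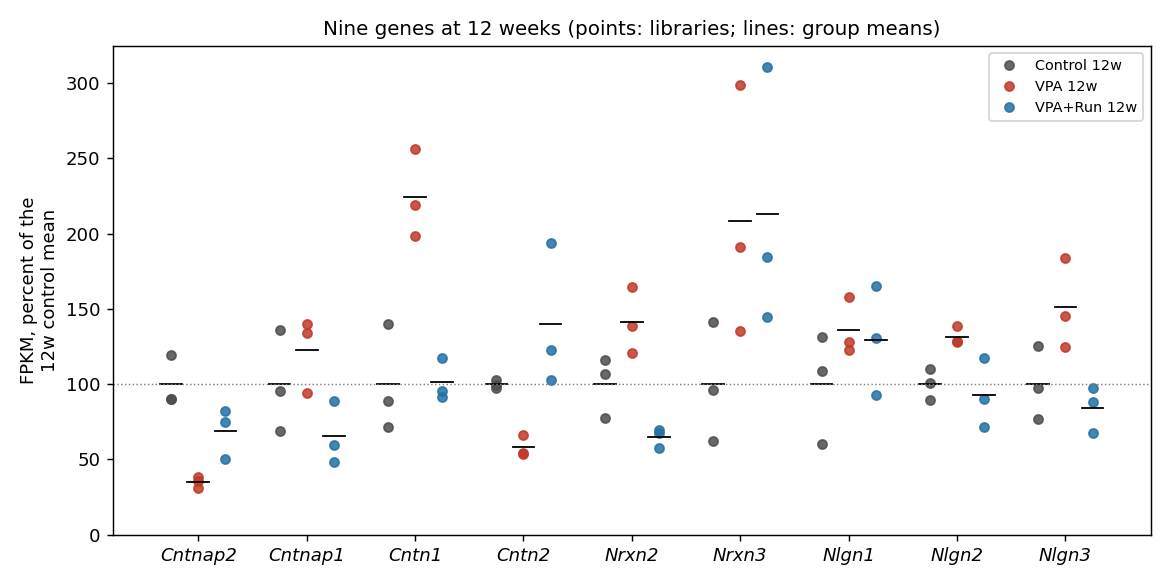
FPKM of the 9 genes in the 9 libraries of 12 weeks, as a percentage of the 12-week control mean of that gene; points are libraries. VPA libraries are below the controls for Cntnap2 and Cntn2 and above them for Cntn1, Nrxn2 and Nlgn2.

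Several lists of cell type markers also moved with these groups at 12 weeks. The 9 oligodendrocyte precursor markers summed to 1236 to 1916 FPKM in controls, 2207 to 3316 in VPA libraries and 1084 to 1405 with running, with none at 0 in all libraries of a group. All 9 were higher in VPA than control (median 0.94) and 0 of 9 were higher with running than VPA (median -1.22), though none passed the test. Pdgfra, their defining receptor gene, had 149.5, 188.5 and 123.9 FPKM in controls, 250.7, 318.2 and 423.6 in VPA libraries and 140.2, 121.7 and 153.9 with running. The 12 newborn neuron markers summed to 2983 to 3406 FPKM in controls, 1933 to 2412 with VPA and 2288 to 3054 with running. Of these, 0 of 12 were higher with VPA (median -0.52) and 10 of 12 with running over VPA (0.27). Neural stem cell markers were higher with VPA in 4 of 12 (-0.18) and with running over VPA in 10 of 12 (0.20). Mature neuron markers were higher in 3 of 13 (-0.09) and 4 of 13 (-0.11). The 8 endothelial markers summed to 282.9 to 505.6 FPKM in controls, 94.09 to 264.5 with VPA and 171.8 to 272.3 with running, and 0 of 8 were higher with VPA (median -1.10). The 8 pericyte markers summed to 1065 to 2336, 790.9 to 1120 and 680.7 to 1462 FPKM in the same order, with 1 of 8 higher with VPA (median -0.57). Of the oligodendrocyte markers 1 of 10 was higher with VPA (median -0.72) and 7 of 10 with running over VPA (0.66), and of the astrocyte markers 1 of 8 (-0.61) and 5 of 8 (0.81). GABAergic neuron markers were higher with VPA in 6 of 7 (median 1.04) and with running over VPA in 2 of 7 (-0.67), and microglial markers in 2 of 8 (-0.69) and 1 of 8 (-0.96). Choroid plexus markers were higher with VPA in 3 of 5 (median 0.75) and with running over VPA in 3 of 5 (0.76). The 1 erythroid marker tested was lower in both comparisons (-3.20 and -0.63). No marker of these lists passed. The part of these cell types in the Cntnap2, contactin, neurexin and neuroligin values was not tested. At P5 the oligodendrocyte precursor sum was 458.9 to 547.1 FPKM in controls and 521.4 to 586.8 with VPA, and in controls from P5 to 12 weeks all 9 of these markers rose.

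Between control ages, 5 of 9 members passed from E15 to P5, Cntnap2, Cntnap1 and Cntn1 rising and Cntn2 and Nrxn3 falling, against 20.7% of all tested genes (14.4% rising and 6.33% falling). After median-of-ratios scaling the median of all genes moved by -0.11 and the share of calls that were higher went from 69.5% to 58.1%. From P5 to 12 weeks 4 of 9 passed, Cntnap1, Cntn1 and Nrxn2 rising and Cntn2 falling, against 12.6% of all genes (7.26% rising and 5.35% falling). Leaving out 1 library at a time gave 2 to 4 members for that step. The change of the VPA difference from E15 to P5 passed for 0 members with limma, against 0.0955% of all genes, and 0 members had an unadjusted p under 0.05 (1.93% of all genes). Apart from Cntnap2, the change from P5 to 12 weeks did not pass for any member; 6 of 9, Cntnap2 among them, had an unadjusted p under 0.05 (10.5% of all genes). It was 0.99 ± 0.44 for Cntn1 (adjusted p = 0.436) and 0.66 for Nlgn3 (adjusted p = 0.290).

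Genes that work with the members were taken as 5 lists, of which 116 of 119 symbols were in the files: other family members, extracellular partners, axonal partners, scaffolds and other synaptic adhesion genes. With VPA, 0 of 104 tested passed at E15 (0.0405% of all genes) and 1 of 105 at P5 (2.24%). VPA at 12 weeks and running each gave 0 of 109 (0% of all genes). That gene at P5 was Nxph4, which codes for a neurexophilin that binds neurexins. It had 32.5 ± 0.390 FPKM with VPA and 24.1 ± 2.01 in controls (0.42 ± 0.07, limma adjusted p = 0.0346) and held in 6 of 12 settings. Without Control P5 replicate 1 the adjusted p was 0.115. With running, 80 of the 109 were lower than in VPA libraries (median -0.33, against -0.05 over all genes).

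In control cells more of these partners changed with age, 21 rising and 32 falling of 113 from E15 to P5, when 14.4% of all tested genes rose and 6.33% fell. Kcna2, a potassium channel gathered by Caspr2, rose by 2.30 ± 0.20 (limma adjusted p = 1.19e-07). Those that fell included L1cam, a neuronal adhesion molecule (by 1.59 ± 0.10), Adgrl2, a latrophilin that binds neurexins and teneurins (by 2.27 ± 0.16), and Dlg2, a postsynaptic scaffold (by 2.98 ± 0.22). From P5 to 12 weeks 18 rose and 11 fell of 113, against 7.26% and 5.35% of all tested genes. Lgi1, a secreted synaptic ligand, rose by 3.03 ± 0.25 (adjusted p = 4.49e-07), Nxph1, another neurexin ligand, rose by 2.55 ± 0.28, and Adgrl2 fell again, by 1.30 ± 0.16.

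As a description over 21 libraries, which share ages and groups, the genes whose log2 values most resembled each member among 13641 genes were found by Pearson r. Cntnap2 was closest to Rnd2 (0.872) and Akap11 (0.833), and its r with the other members ran from -0.636 to 0.158. Cntn1 was closest to Prkcq (0.982) and Il1rap (0.981), Cntn2 to Chd3 (0.982) and Map1b (0.979), and Cntnap1 to Tmem255b (0.977). Nrxn2 was closest to Galnt10 (0.945) and Ncam1 (0.943), and Nlgn3 to Igsf21 (0.923). The lowest r, 0.901 for Nlgn2 with Dmpk, 0.885 for Nrxn3 with Slit1, 0.872 for Cntnap2 and 0.870 for Nlgn1 with Zfp420, were those of the remaining members and Cntnap2. Between members, r was 0.942 for Cntnap1 with Cntn1, -0.967 for Cntn1 with Cntn2 and 0.898 for Nrxn2 with Nlgn3.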

How the data were processed

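Polyadenylated RNA of sorted cells was sequenced on an Illumina instrument by the authors. The genome was mm10 and the tools Bowtie2, TopHat, Cuffdiff and Cufflinks, per the submitters' processing notes, with versions not given in the sources used here. Deposited values are FPKM, named so in the headers of the 12-week tables and inferred for E15 and P5 from the same symbols and range. The members and gene lists were chosen with earlier results of these data known. Values were analysed as log2(FPKM + 1), which understates changes of low genes, and genes reaching 1 FPKM in 3 or more libraries of a fit were tested. Fits used limma 3.58.1 in R 4.3.3 (eBayes with trend), on 6 libraries at E15 and at P5, 9 at 12 weeks, and all 21 for ages and for changes of the VPA difference. Adjustment was by Benjamini-Hochberg over all tested genes at 0.05. The code was tested on simulated data, in which a gene had the same spread in all groups of a fit. That does not test the effect of a spread that differs between ages. No 2 libraries were identical. Listed genes were named by rule, up to 2 per list and direction with the largest passing change, if the higher group's mean reached 5 FPKM. Alternatives were a pseudocount of 0.1, no filter, median-of-ratios scaling, a replicate block, no trend, and leaving out each library. A fit of only the groups compared was added after seeing the data. At E15 same-numbered libraries deviated together (r = 0.126, 0.115 and 0.228 over genes), which pairs them by the data alone.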

Additional observations from a re-analysis of the deposited data

Results flagged for a closer look

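For Cntnap2 the VPA difference was 0.33 at P5 (limma adjusted p = 0.115) and -1.40 at 12 weeks (adjusted p = 0.415), neither of which passed. The change between the ages was -1.73 ± 0.24 on the log2(FPKM + 1) scale (adjusted p = 0.00289), and it was this test that singled it out. The gene was picked with results of these data known, so the p-value is no independent support. The spread behind it is shared with the younger groups, whose replicates lie closer together, so the p-value may be too small. VPA libraries were higher than control in 3 of 3 at P5 and lower in 3 of 3 at 12 weeks. For the same change pericyte markers had a median of -1.53 (0 of 8 higher, 2 passing), endothelial markers -1.33 (0 of 8), microglial markers -1.22 (1 of 9), newborn neuron markers -0.50 (1 of 12) and oligodendrocyte precursor markers 0.77 (8 of 9 higher). Oligodendrocyte markers had -0.64 (1 of 10), astrocyte -0.64 (1 of 8), mature neuron -0.43 (3 of 13), neural stem cell 0.15 (6 of 12) and GABAergic neuron 0.71 (6 of 9). Their part in the Cntnap2 change was not tested.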

How the results depend on the processing

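No value of the members changed direction past a threshold in any alternative. Counts of members called were 0 under every alternative for VPA at E15, P5 and 12 weeks, for running, and for the change of the VPA difference from E15 to P5, and 1 for its change from P5 to 12 weeks. Leaving out 1 library gave 4 to 5 members from E15 to P5 and 2 to 4 from P5 to 12 weeks. With a replicate block the members called were 0 in each comparison within an age, 5 from E15 to P5, 3 from P5 to 12 weeks, where Cntnap1 was lost (adjusted p = 0.0699), and 1 for the change of the VPA difference from P5 to 12 weeks. At P5 the pairing by number was unsettled (r = 0.094, 0.044 and 0.013). There VPA replicates 1 and 2 deviated most like the control of the same number, and replicate 3 did not. The numbers do not pair samples at 12 weeks (r = -0.082 to 0.012). Counts over all genes were less steady. VPA at E15 gave 5, 3 without the filter, 4 with the block and 0 to 11 leaving out 1 library. VPA at P5 gave 298, 36 without the filter, 70 with the block and 18 to 543. VPA at 12 weeks gave 0, 1 with only the groups compared and 0 to 1. Running gave 0, 3 with a pseudocount of 0.1, 1 without the filter, 2 with only the groups compared and 0 to 37. E15 to P5 in controls gave 3038, and 8033 with only the groups compared. P5 to 12 weeks gave 1848, and 1139 to 2288 leaving out 1 library. The change of the VPA difference gave 14 from E15 to P5, 30 without the filter and 157 with only the groups compared, and 57 from P5 to 12 weeks, with 10 to 224 leaving out 1 library. Depth is unknown, and 3 libraries per group with a wide spread at 12 weeks limit every difference there.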

Other observations

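The remaining contactin and Cntnap genes were mostly low. Cntn6, a contactin of developing neurons, rose in controls from 1.18 ± 0.270 FPKM at P5 to 7.17 ± 2.91 at 12 weeks (log2 difference 1.85 ± 0.34, limma adjusted p = 0.00128). It had 11.8 ± 3.28 with VPA and 4.0 ± 2.11 with running at 12 weeks, and those differences did not pass (0.69, adjusted p = 0.858, and -1.44, adjusted p = 0.304). Cntn4 had 2.39 ± 2.19 in controls, 6.26 ± 1.97 with VPA and 4.18 ± 2.04 with running. Cntnap4, a relative of Cntnap2, had 3.09 ± 0.970 in 12-week controls, 1.28 ± 1.27 with VPA and 3.0 ± 2.89 with running, and these differences did not pass either (-0.99, adjusted p = 0.846, and 0.76, adjusted p = 0.687).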
